A study of Mus musculus with 6 samples.

Results

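The genes described are 10 inhibitors of MAP kinase signalling, the dual-specificity phosphatases Dusp1, Dusp2, Dusp4, Dusp5, Dusp6, Dusp7, Dusp10 and Dusp16 and the Sprouty family genes Spry1 and Spred1. They were chosen by name, with earlier results of these data known. They were matched to Ensembl identifiers through the GENCODE M21 annotation, and make up 10 of the 48440 genes in the count table. RNA was sequenced from primary wild-type mouse CD4+ T cells, isolated from lymph node and spleen, 3 libraries per group. The cells of both groups had been activated for 3 days on plates coated with antibodies against CD3 and CD28, and then grown for 5 days in interleukin 2 without the antibodies. The stimulated group was exposed again to antibodies against CD3 and CD28 for 4 hours before RNA extraction, and the unstimulated group was left at rest. The unstimulated cells were therefore rested, earlier activated T cells rather than naive ones. The replicates are called biological without saying whether they came from separate mice or cultures, so the p-values reflect variation among these 6 libraries alone, and part of it may be technical.

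MAP kinases (ERK, JNK and p38) are switched on by phosphates on a threonine and a tyrosine, and dual-specificity MAP kinase phosphatases (MKPs) remove both. Several MKP genes are themselves transcribed in response to MAP kinase activity, which makes them feedback inhibitors. Sprouty and Spred proteins act further upstream, on the Ras and Raf steps that lead to ERK. In T cells the antigen receptor and its partner CD28 activate these cascades, which feed the genes for interleukin 2 and other effector functions.

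At 4 hours 7 of the 10 genes were higher in stimulated cells, 1 was lower and 2 were not called by edgeR's quasi-likelihood test (Benjamini-Hochberg adjustment over 13314 tested genes, threshold 0.05). All 10 passed the filter on low counts and were tested. The stimulus moved most of the transcriptome, since 77.5% of all tested genes were called, 38.4% as higher and 39.1% as lower, so that a call alone sets a gene apart little. Past a 2-fold change, tested with edgeR's glmTreat, 7 members were higher and none lower, where 35.6% of all tested genes were called, 17.4% higher and 18.2% lower. The median log2 fold change of the 10 genes was 2.44, beside -0.04 for all tested genes. Because the members were chosen with earlier results of these data known, their counts and median describe the list and do not test it. The stimulated and unstimulated libraries did not overlap for 9 members, 7 higher and 2 lower, beside 79.8% of all tested genes, 39.4% higher and 40.4% lower. RNA was taken from bulk cells, so fewer expressing cells and less RNA per cell cannot be told apart, and all levels are relative to the rest of the library.

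**Figure D1:**
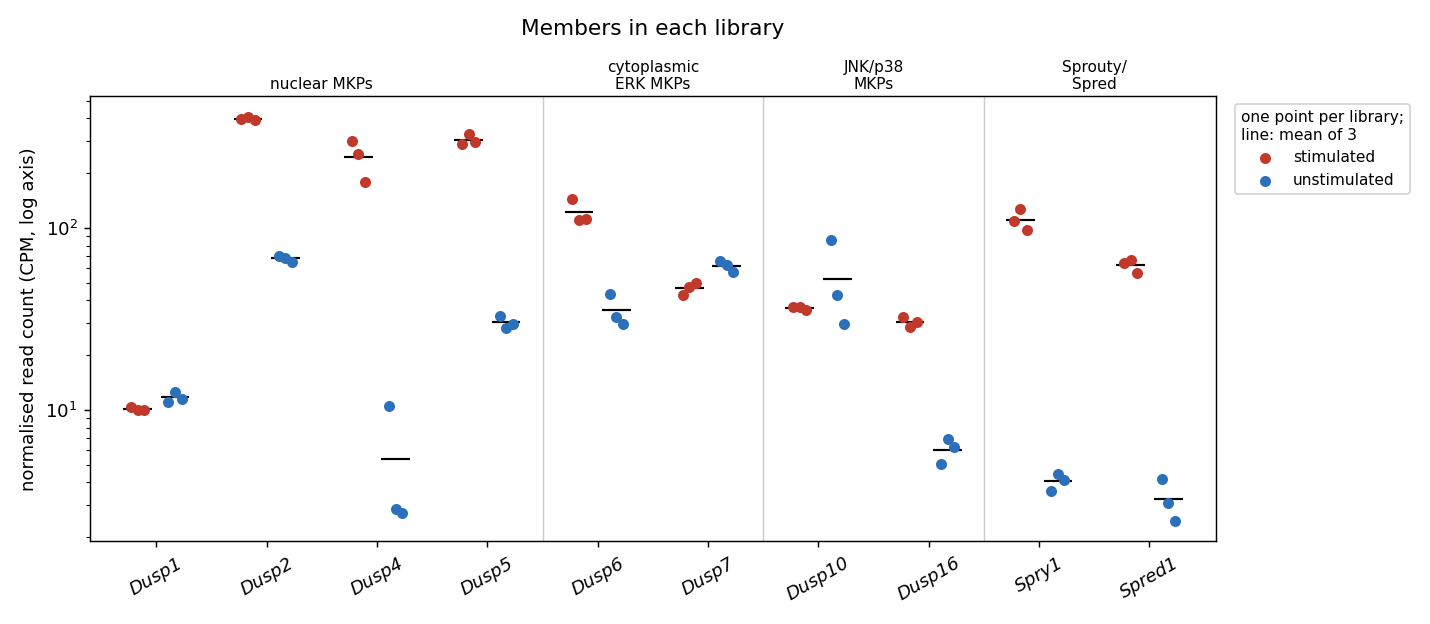
Normalised read count (CPM, reads scaled to a common library size by TMM; log axis) of each of the 10 genes, with 1 point per library, stimulated libraries left of unstimulated ones and a line at the mean of 3. Spry1, Spred1, Dusp4, Dusp5 and Dusp2 stand apart most between the groups, and Dusp4 and Dusp10 spread most among the unstimulated libraries.

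The stretches before the transcription start are shown for 5 genes, because they hold recognition motifs of factors that act downstream of receptor and MAP kinase signals, or, in Spry1, none of the motifs marked in the others. The sequences are from RefSeq on GRCm38.p6, where 9 of the 10 genes matched (Dusp4 was not matched), and each runs 5′ to 3′ towards the RefSeq start and holds no exon base of its gene in GENCODE M21. The Dusp1 stretch lies between exons of its GENCODE M21 model, which reaches further upstream. Capitals mark the cAMP response element (CRE) TGACGTCA and its core TGACG, the CArG box bound by serum response factor, the E-box CACGTG and the EGR site GCGNGGGCG, on either strand.

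Dusp2, chr2:127335909-127336158, plus strand: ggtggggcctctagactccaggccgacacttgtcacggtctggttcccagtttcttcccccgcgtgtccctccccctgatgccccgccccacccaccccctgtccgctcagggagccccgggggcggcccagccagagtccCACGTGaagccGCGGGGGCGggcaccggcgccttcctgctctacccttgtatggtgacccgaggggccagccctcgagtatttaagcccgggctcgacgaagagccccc

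Dusp5, chr19:53528895-53529108, plus strand: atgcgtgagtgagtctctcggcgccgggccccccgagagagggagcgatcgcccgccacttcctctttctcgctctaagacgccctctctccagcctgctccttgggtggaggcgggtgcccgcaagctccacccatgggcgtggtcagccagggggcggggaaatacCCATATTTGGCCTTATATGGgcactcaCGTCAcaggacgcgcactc

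Dusp16, chr6:134792629-134792878, minus strand: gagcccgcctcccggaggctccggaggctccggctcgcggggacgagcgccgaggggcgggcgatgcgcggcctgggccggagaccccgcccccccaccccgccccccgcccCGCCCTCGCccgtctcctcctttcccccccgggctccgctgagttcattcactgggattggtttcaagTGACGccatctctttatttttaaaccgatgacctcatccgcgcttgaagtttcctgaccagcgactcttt

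Spry1, chr3:37639697-37639946, plus strand: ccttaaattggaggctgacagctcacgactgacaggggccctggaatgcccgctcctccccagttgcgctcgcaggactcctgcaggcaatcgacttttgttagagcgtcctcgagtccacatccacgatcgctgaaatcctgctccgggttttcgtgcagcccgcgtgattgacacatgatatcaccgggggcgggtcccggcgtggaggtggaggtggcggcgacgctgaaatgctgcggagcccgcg

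Dusp1, chr17:26508520-26508722, minus strand: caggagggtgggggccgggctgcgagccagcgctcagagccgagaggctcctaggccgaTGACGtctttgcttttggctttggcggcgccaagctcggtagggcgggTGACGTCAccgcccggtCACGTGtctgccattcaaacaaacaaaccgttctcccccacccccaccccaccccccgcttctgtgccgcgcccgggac

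Among the windows of 250 bases before the RefSeq start, Dusp5 was the member with CArG boxes. A pair lay side by side from -82 to -73 (CCATATTTGG) and from -72 to -63 (CCTTATATGG). Positions count from the RefSeq start and not from the end of the printed stretch. A CArG box was found in 1.03% of the 9663 promoter windows of tested genes. Dusp1 was the member with a full CRE, from -143 to -136, a motif in 2.72% of windows. The core TGACG, which the full CRE contains on both strands, was found in Dusp1, Dusp5 and Dusp16 and in 27.6% of windows. The EGR site lay in Dusp2 and Dusp16 (8.58% of windows) and the E-box in Dusp1 and Dusp2 (8.36%). No member window held the AP-1 site TGANTCA (4.07% of windows) or the ETS core CCGGAA (23.4%), and 4 held the NFAT core GGAAA (53.9%), namely Dusp5, Dusp6, Dusp16 and Spred1. A match is a run of letters and not a measured binding site, and members with and without matches were found among the genes that rose.

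Of the nuclear MKPs, which are the group known best for being induced by growth and immune signals, Dusp2, Dusp4 and Dusp5 rose and Dusp1 did not pass the test. Dusp2, also known as phosphatase of activated cells and directed at ERK and p38 (ENSMUSG00000027368, chromosome 2, 127336159 to 127338376 in GRCm38), had 395, 409 and 391 CPM in the stimulated libraries and 70.4, 68.8 and 65.4 CPM in the unstimulated ones. Every stimulated library stood above every unstimulated one, and the libraries within each group lay close together. The log2 fold change was 2.55 (SE 0.065; edgeR, adjusted p = 6.07e-09). Dusp5, an ERK-specific nuclear phosphatase (ENSMUSG00000034765, chromosome 19, 53529109 to 53542431), had 291, 328 and 296 CPM in stimulated libraries against 32.9, 28.4 and 29.8 CPM in unstimulated ones. This was a rise of 3.33 on the log2 scale (SE 0.087; edgeR, adjusted p = 6.63e-09), also without overlap between groups.

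Dusp4, a nuclear phosphatase of ERK and JNK (ENSMUSG00000031530, chromosome 8, 34807297 to 34819894), had 299, 256 and 179 CPM in stimulated libraries, against 10.5, 2.84 and 2.70 CPM in unstimulated libraries 1, 2 and 3. Unstimulated replicate 1 held several times the level of the other unstimulated libraries, yet remained far below the lowest stimulated library. The log2 fold change was 5.52 (SE 0.61; edgeR, adjusted p = 0.000345), which put Dusp4 at rank 93 of the 13314 tested genes by rise. The fold change was 45.8 with all libraries and 88.1 without unstimulated replicate 1. Its SE was the widest of the 10 members.

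Dusp1 encodes a nuclear phosphatase of all 3 kinase families and is an immediate early gene in many cell types (ENSMUSG00000024190, chromosome 17, 26505590 to 26562128). It had 10.4, 10.01 and 9.99 CPM in stimulated libraries and 11.1, 12.5 and 11.5 CPM in unstimulated ones. The stimulated libraries all lay just below the unstimulated ones, but the difference did not pass the test (log2 fold change -0.21, SE 0.099; edgeR, adjusted p = 0.0768). With library sizes taken without further scaling the same difference was -0.35 and was called (edgeR, adjusted p = 0.0105), and over all alternatives the p ran between 0.0105 and 0.232. In GENCODE M21 the Dusp1 model runs on into Ergic1 on the opposite strand and shares 11 of its 3311 exon bases with it. Ergic1 had 4220, 4441 and 4201 reads in stimulated libraries and 1010, 923 and 884 in unstimulated ones. Whether such reads entered the Dusp1 count is not given in the sources used here.

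The cytoplasmic ERK phosphatases moved in opposite directions. Dusp6, which binds and inactivates ERK in the cytoplasm (ENSMUSG00000019960, chromosome 10, 99263231 to 99267489), had 145, 111 and 113 CPM in stimulated libraries and 43.6, 32.5 and 29.8 CPM in unstimulated ones. Replicate 1 was the highest library in each group, and the groups did not overlap. Dusp6 rose by 1.80 on the log2 scale (SE 0.17; edgeR, adjusted p = 1.90e-05).

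Dusp7, its close relative with the same preference for ERK (ENSMUSG00000053716, chromosome 9, 106368632 to 106375724), had 43.0, 47.7 and 49.8 CPM in stimulated libraries against 66.2, 62.9 and 57.3 CPM in unstimulated ones. It was the 1 member that fell, by 0.41 on the log2 scale (SE 0.083; edgeR, adjusted p = 0.00166). Although the groups did not overlap, the change did not pass the test against 2-fold.

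The phosphatases directed at JNK and p38 were Dusp10 and Dusp16. Dusp16 (ENSMUSG00000030203, chromosome 6, 134715468 to 134792625) had 32.4, 28.6 and 30.4 CPM in stimulated libraries and 5.03, 6.89 and 6.29 CPM in unstimulated ones, with a wide gap between the groups. It rose by 2.33 on the log2 scale (SE 0.12; edgeR, adjusted p = 2.31e-07). Dusp10 (ENSMUSG00000039384, chromosome 1, 184013302 to 184075636) had 36.9, 37.0 and 35.4 CPM in stimulated libraries and 85.5, 43.1 and 29.6 CPM in unstimulated libraries 1, 2 and 3.

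The stimulated Dusp10 values were nearly identical, while the unstimulated ones spanned them, so the groups overlapped. Dusp10 did not pass the test (log2 fold change -0.53, SE 0.37; edgeR, adjusted p = 0.233). Without unstimulated replicate 1 the difference was 0.0036 (edgeR, adjusted p = 0.983), so the direction of the Dusp10 difference rested on that library.

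The 2 Sprouty family genes had larger log2 fold changes than all phosphatases but Dusp4. Spry1, which restrains receptor signals to Ras and Raf (ENSMUSG00000037211, chromosome 3, 37639947 to 37644598), had 109, 127 and 97.4 CPM in stimulated libraries against 3.60, 4.43 and 4.15 CPM in unstimulated ones. Its log2 fold change was 4.77 (SE 0.13; edgeR, adjusted p = 7.20e-09), rank 149 of all tested genes. Spred1, which recruits the Ras inactivator neurofibromin to the membrane (ENSMUSG00000027351, chromosome 2, 117121374 to 117182279), had 64.2, 67.1 and 56.5 CPM in stimulated libraries and 4.17, 3.10 and 2.45 CPM in unstimulated ones. It rose by 4.27 (SE 0.17; edgeR, adjusted p = 5.73e-08), rank 205. For both genes the lowest stimulated library held more than 10 times the level of the highest unstimulated one.

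**Figure D2:**
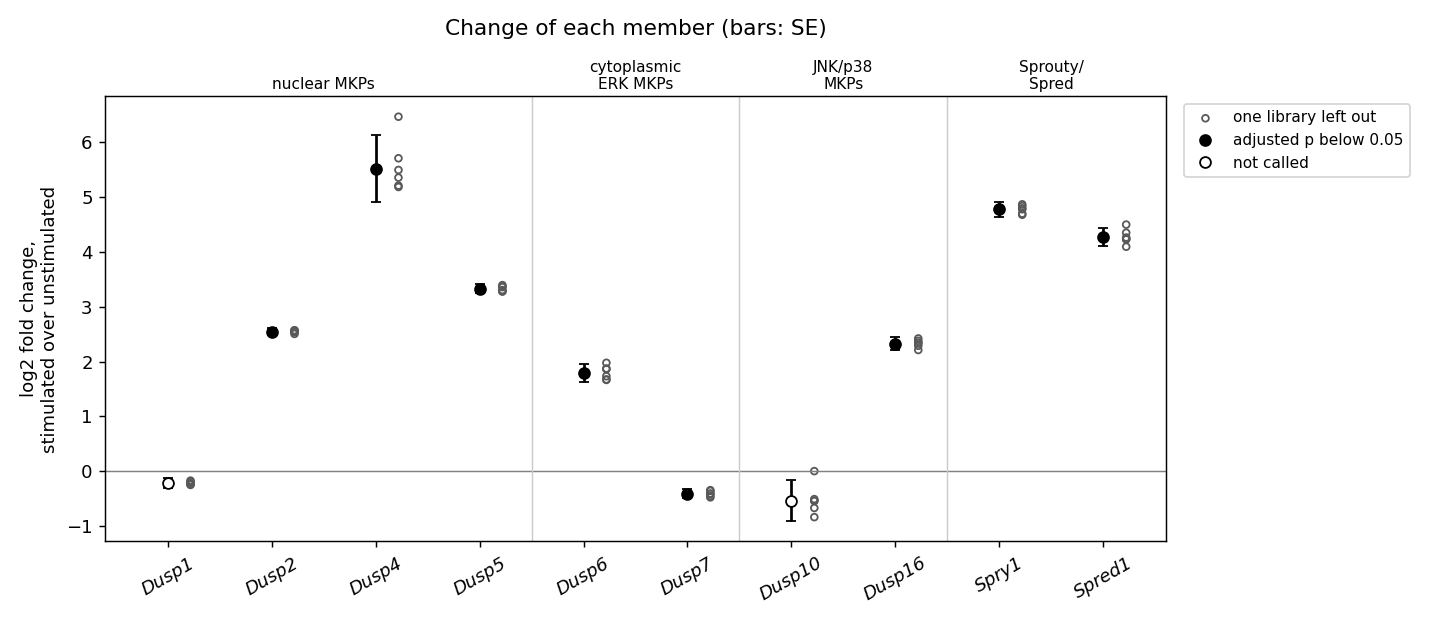
Log2 fold change of stimulated over unstimulated cells for each member with its SE (filled points were called at an adjusted p of 0.05, open points were not), and beside it the value after leaving out each of the 6 libraries in turn. The largest shift was that of Dusp4 without unstimulated replicate 1, to 6.46, and the same library moved Dusp10 to 0.0036.

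Overlapping gene models bear on 2 of the genes that rose. GENCODE M21 places the gene model Gm42922, of a class not yet tested by experiment, on the strand opposite to Spry1, sharing 710 of 2906 exon bases. Gm42922 had 34, 27 and 24 reads in stimulated libraries and 6, 9 and 7 in unstimulated ones, where Spry1 itself had 3073, 3606 and 2828 reads in stimulated and 113, 140 and 132 in unstimulated libraries. For Dusp5 the antisense gene AC137853.2 shares 547 of 2473 exon bases and has no row in the count table. Counting by strand is not stated, so reads of such pairs cannot be told apart.

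To compare the genes with each other, counts were divided by exon length and scaled to the same total in each library (TPM, transcripts relative to that total). In stimulated cells the order of these levels was Dusp2 (589 ± 13.7 TPM), Dusp5 (366 ± 23.6), Dusp4 (265 ± 66.2), Dusp6 (116 ± 18.4), Spry1 (113 ± 14.99), Dusp7 (41.4 ± 2.99), Dusp10 (35.5 ± 0.929), Spred1 (27.4 ± 2.40), Dusp16 (11.6 ± 0.721) and Dusp1 (9.07 ± 0.214; SD, n = 3 each). The only neighbours in that order whose libraries overlapped were Dusp6 and Spry1. In unstimulated cells the order was Dusp2 (111 ± 6.63 TPM), Dusp7 (60.5 ± 5.70), Dusp10 (57.0 ± 32.4), Dusp5 (40.1 ± 3.48), Dusp6 (36.9 ± 8.26), Dusp1 (11.6 ± 0.810), Dusp4 (6.42 ± 5.44), Spry1 (4.56 ± 0.463), Dusp16 (2.54 ± 0.391) and Spred1 (1.56 ± 0.447; SD, n = 3 each). There, Dusp10 overlapped with Dusp7, Dusp5 and Dusp6, Dusp5 with Dusp6, and Dusp4 with Dusp1 and Spry1.

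Dusp2 thus had the highest level per length of the 10 genes in both groups, at percentile 98.2 of all tested genes in stimulated cells and 89.8 in unstimulated cells. Dusp4 stood at percentile 95.7 in stimulated cells and 32.2 in unstimulated cells, and Spry1 at 88.5 in stimulated and 27.5 in unstimulated cells. Dusp1 held nearly the same place, at percentile 41.4 in stimulated cells and 42.6 in unstimulated cells.

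The make-up of the group changed with the stimulus. Summed over the 10 genes the level per length was 1574 ± 103 TPM in stimulated and 332 ± 59.9 TPM in unstimulated cells (SD, n = 3 each). Dusp2, Dusp5 and Dusp4 held 37.5%, 23.3% and 16.7% of that sum in stimulated cells, and 33.96%, 12.2% and 1.80% in unstimulated cells. The share of Dusp7 was 2.64% in stimulated and 18.4% in unstimulated cells, and that of Dusp10 was 2.26% in stimulated and 16.4% in unstimulated cells. The sum of the 2 genes directed at JNK and p38 was 47.1 ± 1.19 TPM in stimulated and 59.5 ± 32.1 TPM in unstimulated cells, a difference within the spread of the unstimulated libraries. Length entered as the union of all annotated exons, and with the longest transcript in its place the sum was 1296 TPM in stimulated and 279 TPM in unstimulated cells.

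**Figure D3:**
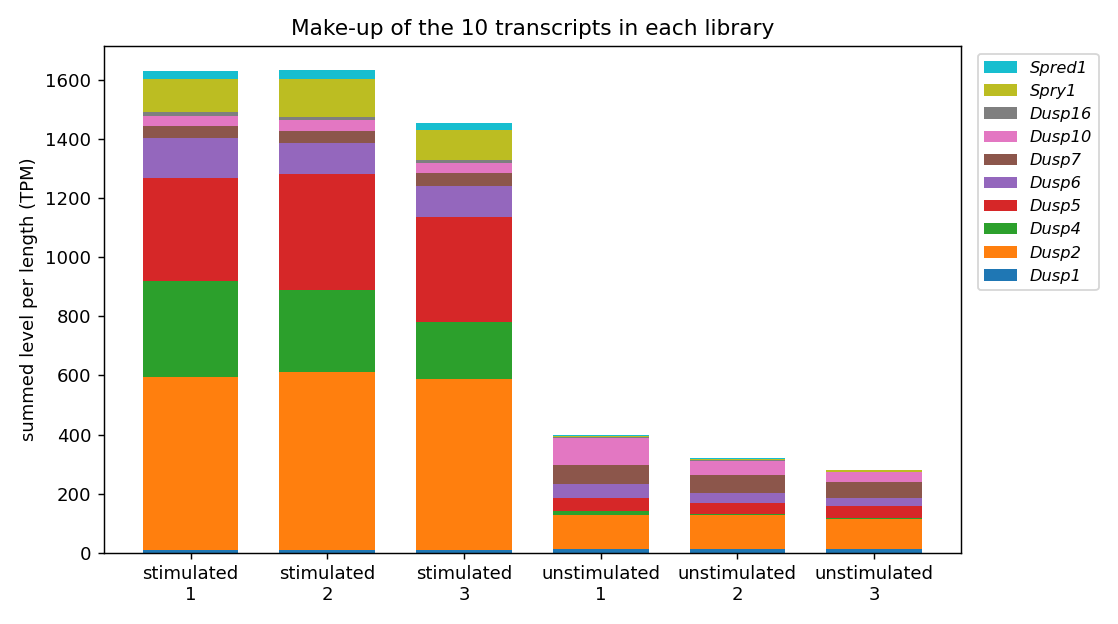
Level per length (TPM) of the 10 genes stacked for each library, the 3 stimulated libraries left of the 3 unstimulated ones. The stimulated sums were 1631, 1635 and 1456 TPM and the unstimulated sums 398, 319.7 and 280.0 TPM, with Dusp2, Dusp5 and Dusp4 filling most of the stimulated bars.

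The spread between libraries differed among the members. Among unstimulated libraries the coefficient of variation ran from 3.73% for Dusp2 to 83.4% for Dusp4, with 55.4% for Dusp10, and among stimulated libraries from 2.20% for Dusp1 to 24.9% for Dusp4. Unstimulated replicate 1 was the highest unstimulated library for 7 of the 10 members, and for 37.5% of all tested genes. Replicate 3 was the highest for 0 members and for 39.5% of all tested genes. Replicate 1 held 3.79 times the mean of the other unstimulated libraries for Dusp4, 2.35 times for Dusp10 and 1.502 times for Spred1. Of all tested genes 5.42% reached 1.5 times in replicate 1 and 5.23% in replicate 3. For Spry1, Dusp16 and Dusp1 replicate 1 was the lowest of the 3. Of the 10 tested ERK output genes, unstimulated replicate 1 was the highest unstimulated library for 5 and replicate 3 for 4, and the median ratio of replicate 1 to the others was 1.10. Replicate 1 reached 1.5 times the mean of the others for 3 of these 10 genes, and replicate 3 for 1. What set unstimulated replicate 1 apart for such genes was not tested.

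**Figure D4:**
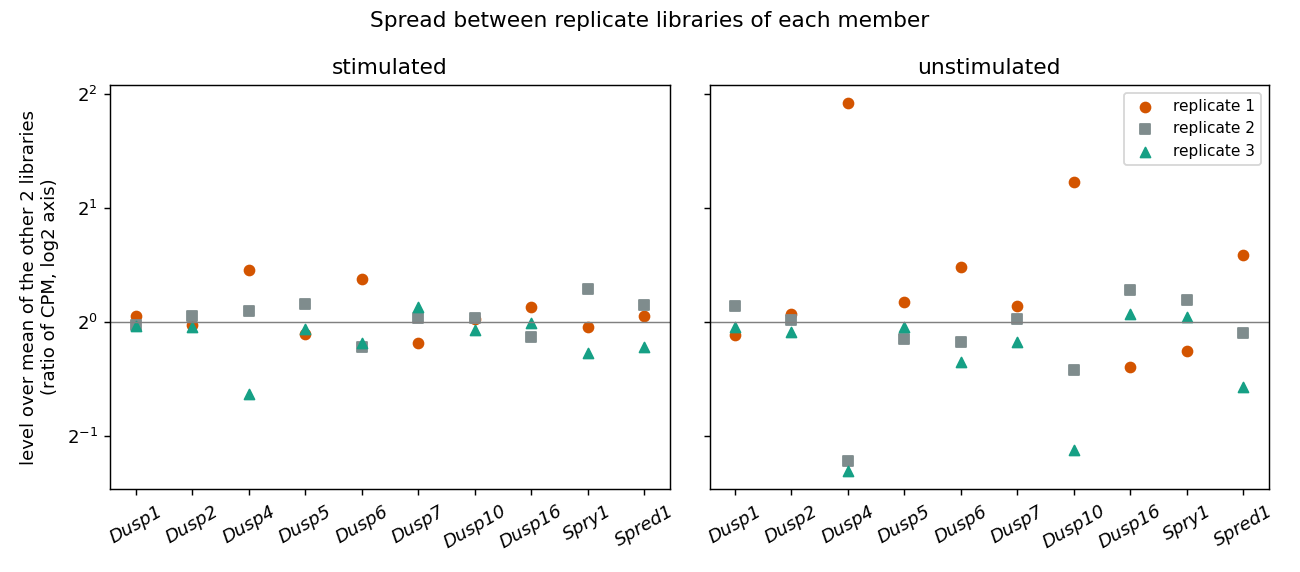
Level of each member in each library over the mean of the other 2 libraries of its group (ratio of CPM, log2 axis), stimulated libraries on the left and unstimulated ones on the right. Unstimulated replicate 1 lies at 3.79 for Dusp4 and 2.35 for Dusp10.

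Most of the closest relatives of these genes were scarce. Of 7 further MKP, Sprouty and Spred genes, Spry3 was not matched, Dusp8 and Spry4 were too low to be tested, Dusp9 was higher, Spred2 and Spred3 were lower and Spry2 did not pass the test. Dusp9, an ERK phosphatase best known from placenta, had 23, 31 and 42 reads in stimulated and 13, 7 and 7 in unstimulated libraries (log2 fold change 1.96, SE 0.38; edgeR, adjusted p = 0.00118). Dusp9 passed the filter on low counts through its stimulated libraries, so its call is not separate support for a rise. Dusp8, related to Dusp16, had 14, 14 and 6 reads in stimulated and 0, 1 and 2 in unstimulated libraries, a ratio of 12.5 with a 95% counting interval of 3.95 to 63.8 (8.39 without unstimulated replicate 1, and 25.0 without unstimulated replicate 3). Spry4 had 1, 9 and 4 reads in stimulated and 1, 0 and 0 in unstimulated libraries. Spry2 had 12, 23 and 11 reads in stimulated against 14, 38 and 25 in unstimulated libraries.

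Spred2, a homologue of Spred1, was the abundant one of these relatives, at 24.6 ± 1.92 CPM in stimulated and 32.7 ± 0.645 CPM in unstimulated cells (SD, n = 3 each), and fell by 0.41 (SE 0.081; edgeR, adjusted p = 0.00129). Spred3 fell by 0.69 (SE 0.25; edgeR, adjusted p = 0.0321), a call lost without unstimulated replicate 1 or 3 or stimulated replicate 1 or 3 (its p ran between 0.0129 and 0.112 over the alternatives). The median of the 4 tested relatives was -0.50, with 1 called higher and 2 lower, beside 38.4% and 39.1% of all tested genes. Among these 4, leaving out single libraries left Dusp9 as the 1 gene called higher, with the limit on its call given above. Dusp8 passed the filter and was also called higher without unstimulated replicate 1, 2 or 3 or stimulated replicate 3. It passed through its stimulated libraries alone, so these calls are not separate support for a rise.

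Atypical dual-specificity phosphatases, small enzymes that lack the kinase-binding domain of the MKPs, divided 4 up and 4 down of 9 tested among 15 listed. Of all tested genes 38.4% were called higher and 39.1% lower. The atypical list had a median of -0.10, and 4 of its genes had no read in any library. Dusp12 had 26.04 ± 2.81 CPM in stimulated and 4.51 ± 0.354 CPM in unstimulated cells, a rise of 2.53, and Dusp14, which dephosphorylates TAB1, a partner of the kinase TAK1, rose by 2.12 (SE 0.17). Styx, a catalytically inactive relative, rose by 0.75. In the other direction Dusp23 fell by 2.85, Dusp19 by 1.45 and Dusp11, an RNA phosphatase, by 0.85, the last to 131 ± 6.54 CPM in stimulated cells against 236 ± 29.96 CPM in unstimulated cells (SD, n = 3 each). The adjusted p of these 6 genes in edgeR lay between 9.99e-08 and 0.00557.

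Other phosphatases that act on MAP kinases numbered 3 up and 3 down of 8, beside 38.4% and 39.1% of all tested genes, with a median of -0.15. With library size alone, and without unstimulated replicate 3, 5 were lower. The tyrosine phosphatases of the kinase-interaction-motif family differed among themselves. Ptpn7, the most abundant of them, had 246 ± 17.1 CPM in stimulated and 273 ± 37.6 CPM in unstimulated cells (SD, n = 3 each). Its groups overlapped and it was not called (log2 fold change -0.15; edgeR, adjusted p = 0.231). Ptpn5 had 25.7 ± 6.26 CPM in stimulated and 1.63 ± 0.138 CPM in unstimulated cells, a rise of 3.98 (SE 0.20; edgeR, adjusted p = 2.03e-07). Ptprr had 0, 0 and 1 reads in stimulated and 74, 25 and 22 in unstimulated libraries, a ratio of 109 in favour of unstimulated cells (95% counting interval 19.3 to 4353; edgeR, adjusted p = 0.000347). That ratio was 63.5 without unstimulated replicate 1, and without stimulated replicate 3 no stimulated read was left, so that Ptprr was at least 24.1-fold lower against a floor of 3 counts over the group. Ptprr passed the filter through its unstimulated libraries alone, so its call is not separate support for a fall.

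Among the serine and threonine phosphatases of that list, the catalytic subunits Ppp2ca and Ppp2cb of protein phosphatase 2A rose by 0.48 and 0.55, and Ppm1b and Ppm1d fell by 0.51 and 0.91 (edgeR, adjusted p from 5.74e-05 to 0.000142). The most abundant of them was Ppp2ca, at 328 ± 10.6 CPM in stimulated and 234 ± 2.80 CPM in unstimulated cells (SD, n = 3 each).

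Of the 15 genes of the ERK cascade 7 rose and 4 fell, beside 38.4% and 39.1% of all tested genes, with a median of 0.22. Scaling by library size only gave 5 rises and 6 falls. Ksr1, a scaffold that holds Raf, MEK and ERK together, had 242 ± 22.1 CPM in stimulated and 37.1 ± 5.01 CPM in unstimulated cells, a rise of 2.71 (SE 0.12). The small GTPase Hras rose by 1.44 (SE 0.083). Mapk3, which encodes ERK1, fell to 14.5 ± 1.28 CPM in stimulated cells, against 85.1 ± 6.10 CPM in unstimulated cells (log2 fold change -2.55, SE 0.092; edgeR, adjusted p = 2.49e-08; SD, n = 3 each). Shoc2 and Araf fell by 0.49 and 0.22.

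On the scale per length Mapk3 had 19.0 ± 1.70 TPM in stimulated and 123 ± 9.68 TPM in unstimulated cells, and the 4 nuclear MKPs summed to 1229 ± 81.3 TPM in stimulated and 169 ± 14.2 TPM in unstimulated cells (SD, n = 3 each). Transcript levels say nothing of the amounts or activity of these proteins.

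The JNK and p38 cascades counted 14 up and 7 down of 23 tested genes, with a median of 0.48. Over all tested genes 38.4% were called higher and 39.1% lower. Gadd45b, which binds and activates the upstream kinase MEKK4, had 219 ± 1.64 CPM in stimulated and 5.43 ± 0.784 CPM in unstimulated cells, a rise of 5.33 (SE 0.11). The p38 kinase kinase Map2k3 rose by 2.27 and Mapkapk2, a kinase activated by p38, by 1.87. Map2k6, the other p38 kinase kinase, fell by 3.76 (SE 0.25) to 1.46 ± 0.558 CPM in stimulated cells, against 19.9 ± 3.18 CPM in unstimulated cells (SD, n = 3 each). Map3k3 and Map3k1 fell by 2.40 and 1.84. The adjusted p of these 6 genes in edgeR lay between 4.62e-09 and 1.16e-06.

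Genes known as transcriptional output of ERK rose in 9 of 10 tested cases, beside 38.4% of all tested genes, with a median of 3.10. The AP-1 subunit Fosl1 had 21.1 ± 1.95 CPM in stimulated and 0.559 ± 0.123 CPM in unstimulated cells (SD, n = 3 each), a rise of 5.23. Etv4, an ETS factor, had 121, 117 and 116 reads in stimulated and 3, 1 and 5 in unstimulated libraries. Its rise of 5.38 (SE 0.35) ran from 4.98 to 5.92 on leaving out a library. Etv4 lay near the floor in unstimulated cells and passed the filter through its stimulated libraries alone, so its call is not separate support for a rise. Phlda1 rose by 2.95. The adjusted p of these 3 genes in edgeR lay between 1.44e-08 and 7.90e-07. Ccnd1, which encodes cyclin D1, had 12, 12 and 11 reads in stimulated and 23, 19 and 27 in unstimulated libraries. Its fall of 0.83 (edgeR, adjusted p = 0.0309) was lost in 9 of 13 alternatives, among them leaving out any library but unstimulated replicate 2 (p between 0.0158 and 0.127).

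**Figure D5:**
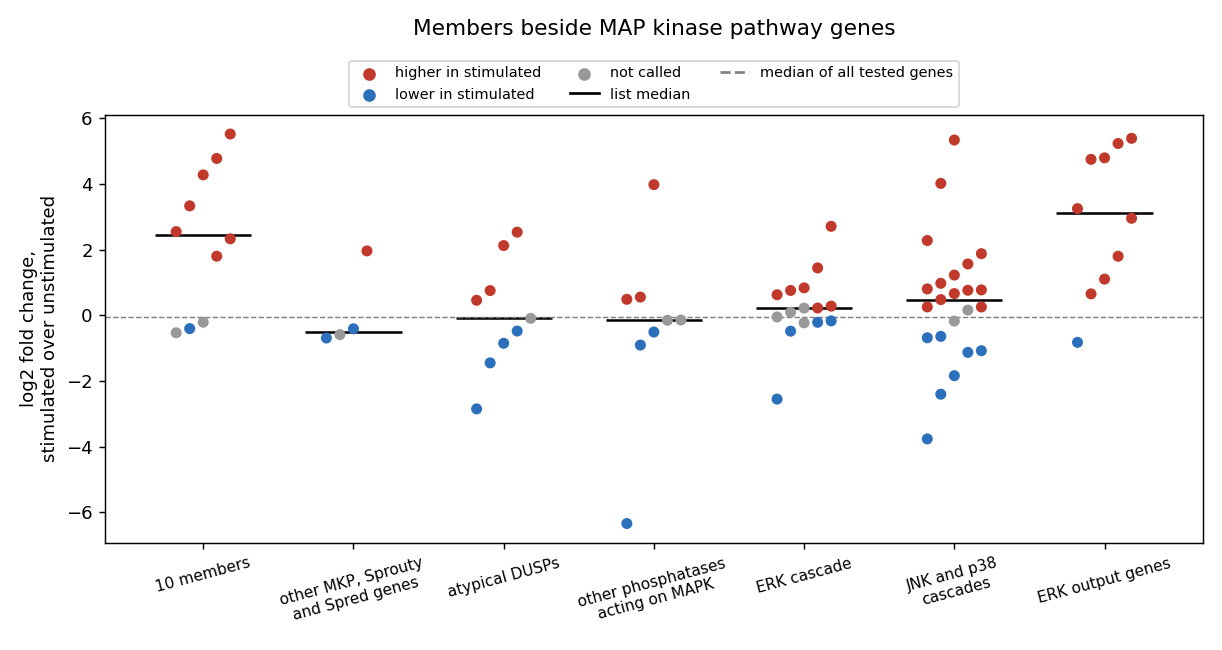
Log2 fold change of stimulated over unstimulated cells for the 10 members and for 6 lists of related genes, 1 point per tested gene coloured by its call, with the median of each list and a dashed line at the median of all tested genes. The medians run from -0.50 for the relatives of the members to 3.10 for the ERK output genes, with 2.44 for the members.

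Structural features of the genes were set beside those of all tested genes with a coding transcript. The 10 genes spanned a median of 12961 bases in the genome, from 2218 for Dusp2 to 77158 for Dusp16, where the median over 11704 tested coding genes was 23283. The AU-rich pentamer ATTTA, known from unstable messenger RNAs, occurred a median of 2.5 times in the 3′ untranslated regions of the members and 1 time in those of all tested coding genes. Spred1 held 12 copies in 4330 bases and Dusp7 none in 1778. Dusp1 was the member with the longer motif TTATTTATT, in 2 copies, a motif found in 7.09% of tested coding genes.

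Depth hardly differed between the libraries, from 29897720 to 30252923 counted reads, and 3 reads corresponded to 0.0943 to 0.106 CPM. The 7 T cell markers summed to between 1684 and 1736 CPM in stimulated and 3716 and 3903 CPM in unstimulated libraries, and all 7 were lower after stimulation, with Cd4 at 333 ± 16.7 CPM in stimulated and 984 ± 40.2 CPM in unstimulated cells. The 6 B cell markers summed to between 729 and 1280 CPM in stimulated and 1402 and 2858 CPM in unstimulated libraries, nearly all of it Ighm (963 ± 277 CPM in stimulated and 1985 ± 739 CPM in unstimulated cells), and 5 of the 6 were lower, with the Ighm call lost without unstimulated replicate 3, stimulated replicate 1 or 2 or the filter. Natural killer markers summed to between 0.638 and 2.39 CPM in stimulated and 5.76 and 17.8 CPM in unstimulated libraries, mostly Klrd1. Dendritic cell markers, in contrast, summed to between 2.49 and 4.43 CPM in stimulated and 1.006 and 1.62 CPM in unstimulated libraries, with 2 of 4 called higher, 1 lower and Siglech at 0 reads. The most abundant of them, Itgax, had 106, 37 and 34 reads in stimulated and 10, 4 and 6 in unstimulated libraries. This was a rise of 3.27 (SE 0.59; edgeR, adjusted p = 0.000932), and of 2.53 without stimulated replicate 1. Itgax passed the filter through its stimulated libraries alone, so its call is not separate support for a rise. Myeloid markers summed to between 1.58 and 2.66 CPM in stimulated and 5.06 and 7.0003 CPM in unstimulated libraries, with 2 of 6 lower, S100a8 at 0 reads, and Itgam, the most abundant, lower by 4.81-fold. Red blood cell markers summed to between 0.106 and 0.827 CPM in stimulated and 0.605 and 1.89 CPM in unstimulated libraries, mostly Hba-a1, whose groups overlapped and whose call as lower was lost without unstimulated replicate 2 or 3 or stimulated replicate 1 or 2. CD8 markers, mostly Cd8b1, lay between 20.7 and 25.8 CPM in stimulated and between 20.9 and 24.8 CPM in unstimulated libraries. Of the 2 CD8 markers 1 was called higher, and Cd8b1 was called lower (log2 fold change -0.33; edgeR, adjusted p = 0.0358). The Cd8b1 call was lost in 5 of 14 alternatives. The part of other cells in the members' levels was not tested.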

How the data were processed

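RNA sequencing of 6 libraries was used, and the authors deposited 1 table of unnormalised read counts for 48440 Ensembl genes. The build GRCm38 and the tools HTSeq, DESeq2 and STAR 2.5.2a are listed without a role, per the submitters' processing notes. The annotation release, strand setting and read filters were not given in the sources used here. Symbols, coordinates and exon lengths came from GENCODE M21, which matched 48058 identifiers. Groups and replicate numbers came from the labels.

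The members and gene lists were chosen with earlier results of these data known. edgeR 4.0.16 (R 4.3.3) was run on all genes with TMM scaling, filterByExpr, robust dispersions and the two-sided quasi-likelihood test (a single group term), with Benjamini-Hochberg adjustment over the 13314 genes kept. The SE was derived from the change and the F statistic, and CPM used TMM-scaled library sizes. glmTreat tested against a log2 fold change of 1. Alternatives were RLE, library size alone, no filter, 1 CPM in 3 libraries, DESeq2 1.42.0, limma-voom (3.58.1), replicate number as a block, each library left out, and an adjusted p of 0.01.

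The 10 members and their relatives were always named, and of each other pathway list the 3 rises and 3 falls with the smallest p. Ptpn7 was named in addition, as the most abundant of its family. Of marker lists the most abundant gene was named. Some genes of the ERK cascade list are not reported here by name. Counting intervals are exact binomial at 95% and, like the floor of 3 counts, cover counting error only. Pairs of libraries within a group differed by more than counting noise, with a dispersion index from 9.41 to 37.6. The steps were tested on simulated data. Python 3.11.15 with pandas 2.3.3, scipy 1.17.1 and matplotlib 3.10.9 was used for tables and figures.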

Additional observations from a re-analysis of the deposited data

How the results depend on the processing

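The 7 rises past 2-fold held under every alternative that tested them, and the fall of Dusp7 was called under all 14. Dusp1 was called with library size alone (-0.35, against -0.21), which made 2 members lower in place of 1. That scaling moved the median of all tested genes by -0.14. The difference of Dusp10 changed sign without unstimulated replicate 1 (0.0036, against -0.53), and over the libraries left out it ran from -0.83 to 0.0036. Counts in small lists moved most. Relatives called higher numbered 3 with no filter and 0 with the filter of 1 CPM in 3 libraries, against 1, and 1 to 2 on leaving out a library, where the added gene was Dusp8. Relatives called lower were 1 at an adjusted p of 0.01, against 2, and 1 to 2 on leaving out a library. Other MAP kinase phosphatases called lower were 5 with library size alone, against 3, and 3 to 5 on leaving out a library. The single ERK output gene called lower dropped to 0 with no filter, with the filter of 1 CPM, with the replicate block, with DESeq2 and at an adjusted p of 0.01, and was 0 to 1 on leaving out a library. Lengths of the longest transcript put the summed level of the members at 1296 TPM in stimulated cells, against 1574. The cause of these shifts was not tested.

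Same-numbered libraries of the groups had deviations correlated at 0.36, 0.084 and 0.38 for numbers 1, 2 and 3. Every library correlated best with its own number, though weakly for number 2. The labels do not say what the numbers pair, so the main test did not use them and the replicate block was an alternative. With the replicate block 5326 genes were higher and 5516 lower, against 5113 and 5207 without it. The block ended no member's call, and the replicate block gave Dusp4 a log2 fold change of 5.65 and Dusp10 one of -0.41.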
